A study of Drosophila melanogaster with 6 samples.

Results

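The 37 genes described here encode receptors for neuropeptides and peptide hormones of Drosophila melanogaster, and they were taken by their symbols from the 22064 features that the single-cell count files list. Neuropeptides are short secreted signals cut from larger precursors, and most of them act on G protein-coupled receptors, which change cyclic AMP or calcium inside the receiving cell. In the fly brain such receptors are known for roles in feeding, sleep, daily rhythms, mating and water balance. Pdfr, Dh31-R, Dh44-R1 and Dh44-R2 belong to the secretin-like receptors and the others to the rhodopsin-like receptors. Among the latter, Lgr1, Lgr3 and rk have leucine-rich repeats outside the cell.

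Single-cell RNA-seq was measured in 6 droplet libraries from dissociated brains, 3 of control flies and 3 of flies with a knock-in of the P251L change in tau, the fly gene of a microtubule-associated protein. The genotype label of the controls was elav-GAL4(x)/+, with the treatment given as wild type, and that of the other flies was elav-tau P251L KI. The gene elav is active across neurons, GAL4 is a yeast transcription factor used to drive transgenes, and the labels do not say how the knock-in was built, how old the flies were or when libraries were made. Each library pooled 20 male and 20 female brains that had been treated with 0.05% trypsin for 30 minutes and passed through a 10 µm strainer. Nothing states that the libraries of a group came from separate preparations, so p-values measure the spread between these libraries, which may be technical.

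Libraries held 22026339 to 114599045 unique molecular identifiers (UMIs, each standing for 1 captured RNA molecule), and the barcodes with at least 1000 UMIs, called cells here, numbered 5467 to 30602 per library with a median of 1633 to 2473 UMIs. Levels are given as CPM, the UMIs of a gene per 1000000 UMIs of the same cells, scaled by a normalization factor per library. The kit reads transcripts at their 3′ end, so levels were not divided by transcript length, and an order between genes is an order of captured transcript ends. Cell barcodes shared by a pair of libraries came to at most 1.02% of the smaller one. Expression of tau itself was 246, 269.1 and 279.7 CPM in control replicates 1 to 3 and, in the same order for the knock-in, 311.8, 331.2 and 70.4 CPM, so that the library labelled knock-in replicate 3 stood apart from the others.

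Cells were sorted by the transcripts of 7 gate genes, with at least 2 UMIs required. VAChT marks cholinergic, VGlut glutamatergic and Gad1 GABAergic neurons, and a cell passed these only if it held more UMIs of that gene than of both others. The gene prt is used as a mark of Kenyon cells, the intrinsic neurons of the mushroom body, Vmat of monoaminergic cells, dimm of neuroendocrine cells with high peptide output, and repo of glia. The gates held 36943 cells for VAChT, 18804 for VGlut, 13101 for Gad1, 3201 for prt, 1861 for Vmat, 83 for dimm and 293 for repo over all libraries. The markers of each gate were counted against all cells: 7 of 7 Kenyon markers were over 2-fold above their level in all cells in the prt gate, 7 of 8 monoaminergic markers in the Vmat gate, 5 of 5 peptidergic markers in the dimm gate and 10 of 10 glial markers in the repo gate, with 2 of 2, 1 of 2 and 1 of 1 in the Gad1, VAChT and VGlut gates. All of these lists but the Kenyon one include the gate gene itself, whose rise was set by the gating. The VGlut count is that gene alone. In the VAChT gate the other marker, ChAT, was at 498 CPM against 303 CPM over all cells. The gates overlapped and were not all pure. Of the prt-gated cells, 67.1% on average also passed the VAChT gate, and 19.6% of repo-gated cells also passed the Vmat gate. Of the dimm-gated cells, 22.3% on average over 5 libraries also passed the prt gate, and 0.533% of prt-gated cells passed the dimm gate. In the repo gate 2 of 4 fat body markers were over 2-fold above all cells. These were apolpp (1258 against 46.3 CPM) and Fbp1, which was near the floor (0.778 against 0.165 CPM). The other 2 were lower there, Yp1 at 126 against 535 CPM and Lsp2 at 0 against 0.535 CPM. Neuronal transcripts were still present in the repo gate, where the summed level of elav, nSyb, Syt1 and brp was 248 to 3560 CPM against 5061 to 6883 CPM in all cells.

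Receptor transcripts were rare in every library. Summed over the 37 genes they made up 803.7, 984.2 and 1119 CPM in control replicates 1 to 3 and, in the same order for the knock-in, 1034, 1008 and 1110 CPM. The mean level of a gene over the 6 libraries ran from 183 CPM for SPR to 0.244 CPM for PK1-R, a receptor for Capa-derived pyrokinin that was seen in 67 UMIs. AstA-R2 at 0.694 CPM and CapaR at 0.948 CPM were the other members under 1 CPM.

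SPR, the receptor of sex peptide and of myoinhibitory peptides, was found at 126, 185 and 235 CPM in control libraries and 189, 164 and 199.8 CPM in the knock-in libraries. Pdfr, the receptor of the circadian transmitter PDF, followed at 62.3, 99.9 and 127 CPM in control libraries and 106, 103 and 158 CPM in the knock-in libraries. For both genes control replicate 1 was the lowest of the 6 libraries, and the groups overlapped. SPR shares its position (X, 5446656 to 5494012, plus strand) with the opposite-strand gene frma, and the sources do not say if counting used the strand. The level of frma was 127, 43.2 and 7.33 CPM in control libraries and 2.58, 10.3 and 0.420 CPM in the knock-in libraries, an order unlike that of SPR.

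AstA-R1, an allatostatin A receptor, was counted at 67.5, 89.7 and 82.8 CPM in control libraries and 103, 85.4 and 109.3 CPM in the knock-in libraries. AstC-R2, an allatostatin C receptor, was at 46.7, 70.5 and 88.7 CPM in control libraries and 92.8, 77.2 and 77.6 CPM in the knock-in libraries. Control replicate 1 was again lowest for both, and the groups overlapped. CNMaR, the receptor of the peptide CNMamide, was at 54.5, 83.8 and 91.4 CPM in control libraries and 69.8, 69.6 and 46.3 CPM in the knock-in libraries, with knock-in replicate 3 lowest. It overlaps the opposite-strand gene fry, which had a mean of 60.7 CPM.

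TrissinR, the receptor of the peptide trissin, was nearly level over libraries, with 62.3, 60 and 61.3 CPM in control libraries and 58.7, 75.5 and 65.3 CPM in the knock-in libraries. The short neuropeptide F receptor sNPF-R was at 48.4, 54.9 and 53.1 CPM in control libraries and 66, 55.5 and 60.5 CPM in the knock-in libraries, which did not overlap. FMRFaR, which responds to FMRFamide-like peptides, was at 31.4, 33.3 and 36 CPM in control libraries and 35.3, 36.5 and 54 CPM in the knock-in libraries. Knock-in replicate 3 was its highest library by a wide margin.

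Dh44-R1, a receptor of the corticotropin-releasing-factor-like hormone Dh44, was at 19.9, 25.4 and 29.3 CPM in control libraries and 29, 30.1 and 35 CPM in the knock-in libraries. SIFaR, the receptor of SIFamide, was at 25.3, 29.7 and 31.7 CPM in control libraries and 23.1, 28.9 and 23.3 CPM in the knock-in libraries. Both groups overlapped in these genes. TkR99D, a tachykinin receptor, was at 20.6, 23.2 and 26.8 CPM in control libraries and 26.9, 34.2 and 28.5 CPM in the knock-in libraries, which lay above the controls with no overlap. AstC-R1, the other allatostatin C receptor, was at 23, 23.3 and 27 CPM in control libraries and 21.5, 21.9 and 25.2 CPM in the knock-in libraries, and its groups overlapped.

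**Figure D1:**
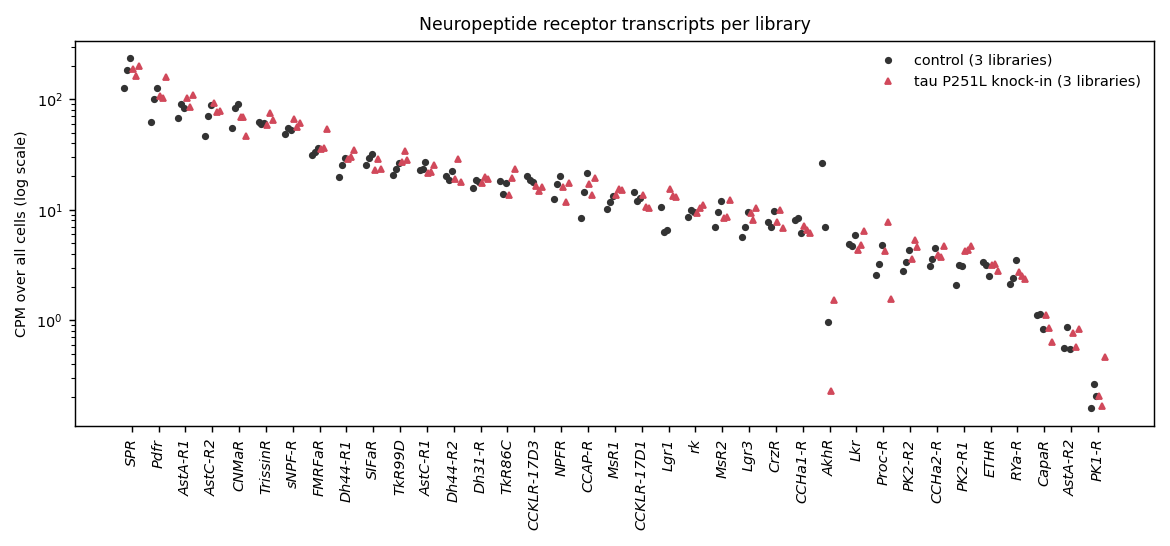
Level of each of the 37 receptor genes over all cells in CPM on a log axis, 1 symbol per library (circles, 3 controls; triangles, 3 tau P251L knock-in libraries), ordered by the mean. SPR at 183 CPM leads and PK1-R at 0.244 CPM ends the order, and AkhR spreads from 26.6 CPM to 0 (its library at 0 cannot be drawn).

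Receptor levels were compared between gated cells and the rest. Against the other cells of the same libraries, tested in edgeR with the library as a block and an adjusted p under 0.05 over all features, 33 of the 37 members passed in at least 1 gate, 32 were higher in at least 1 gate and 30 were higher in a gate and lower in another. Of the 9736 features tested in at least 1 gate, 67.2% passed in at least 1, 55.6% were higher in at least 1 and 36.9% were higher in a gate and lower in another. The members that passed in no gate were rk, the bursicon receptor, which was tested in all 7, CapaR, tested in 3, AstA-R2, tested in 1, and PK1-R, which had too few UMIs to be tested. Summed over members, receptor transcripts reached 1213 ± 82.5 CPM in Vmat-gated cells, 1066 ± 121 in VGlut, 1005 ± 134 in Gad1 and 999 ± 113 in VAChT (SD, n = 6), with 534 ± 119 CPM in prt-gated and 619 ± 154 CPM in repo-gated cells. The dimm gate gave 1148 ± 478 CPM (SD, n = 5), since control replicate 1 had no such cell and was left out of every dimm value.

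Receptor genes were also counted per cell. With each cell thinned to 1000 UMIs, cells of the Vmat gate held UMIs of 1.10 to 1.34 receptor genes on average over the 6 libraries, all cells 0.773 to 0.924, and prt-gated cells 0.213 to 0.514, in as few as 29 prt-gated cells per library. Without thinning the averages were 2.22 to 2.92 in the Vmat gate, 1.31 to 2.06 over all cells and 0.929 to 2.07 in the prt gate, whose cells were deeper (median of 2995 to 5361 UMIs). Free RNA outside cells was read from barcodes with at most 100 UMIs, and it held SPR at 36.7 to 129 CPM and Pdfr at 18.6 to 94 CPM, so part of the counts of abundant receptors in any gate can be such RNA, a share that was not tested.

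**Figure D2:**
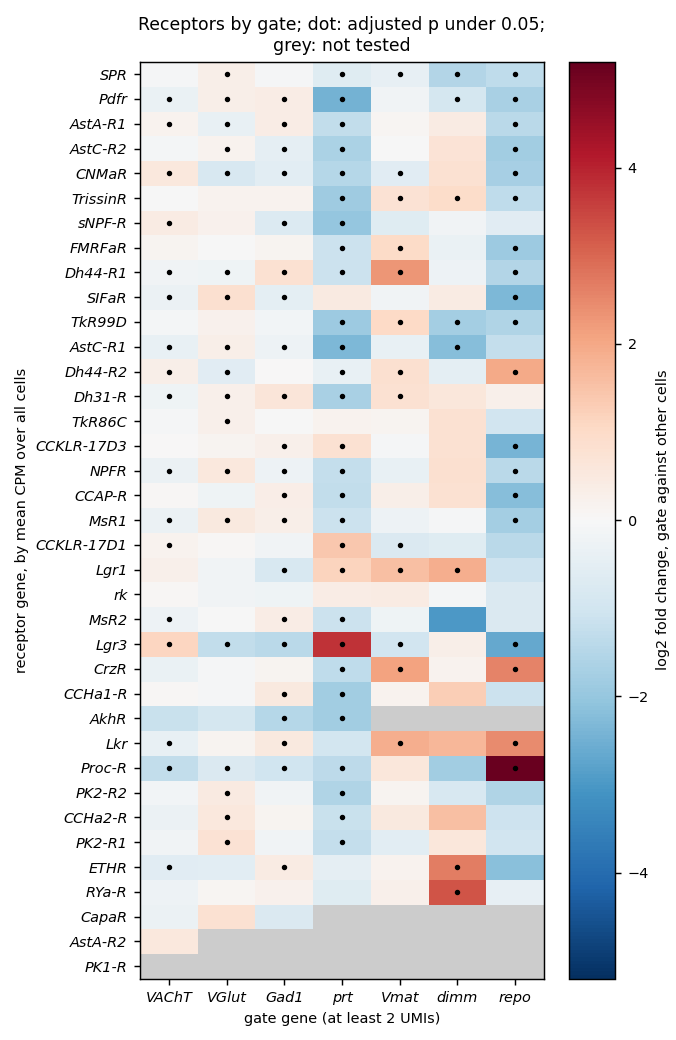
Log2 fold change of each receptor gene (rows, ordered by mean CPM) in gated against other cells of the same libraries for the 7 gate genes (columns), from edgeR. Dots mark an adjusted p under 0.05 and grey cells were not tested. The prt and repo columns are mostly blue (24 and 15 members lower), with Lgr3 at 3.77 and Proc-R at 5.13 as their reddest cells.

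In the prt gate 24 of 34 tested members were lower and 4 were higher, against 28.9% and 23.6% of all features. The median log2 fold change of the members was -1.20, and that of all features -0.05. The members that were higher were Lgr3, CCKLR-17D1, CCKLR-17D3 and Lgr1. Those that were lower took in receptors of many other ligands, among them the PDF, allatostatin C, sNPF, trissin, Dh31 and CCHamide receptors and the tachykinin receptor TkR99D. The other tachykinin receptor, TkR86C, was not lower in this or any other gate, and neither were rk and RYa-R.

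Lgr3 (FBgn0039354, 3R, 25665809 to 25677214, plus strand), the leucine-rich-repeat receptor of the relaxin-like peptide Ilp8, was at 30.8, 59.6 and 80.7 CPM in the prt-gated cells of the controls and 62.7, 59.4 and 74.5 CPM in those of the knock-in. Outside the gate it was at 3.76 to 6.44 CPM, below every gated value. The log2 fold change was 3.77 (SE 0.14, adjusted p = 3.69e-08 in edgeR, higher in 6 of 6 libraries). The prt gate held 5.56% of all UMIs and 42% of the 2381 UMIs of Lgr3. Its level in free RNA was 3.89 to 8.61 CPM, close to its level outside the gate.

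CG4730 and lncRNA:CR45225 lie opposite Lgr3 on the minus strand, and CG4730 was at 2.69 CPM in prt-gated and 3.07 CPM in other cells, without the rise of Lgr3. Lgr3 was also higher in the VAChT gate, at 12.1 ± 3.30 against 5.65 ± 0.780 CPM (SD, n = 6; log2 fold change 1.10 with SE 0.09, adjusted p = 6.58e-05 in edgeR). In the 33254 VAChT-gated cells with no UMI of prt, a split made after these values were seen, Lgr3 came to 3.67 pooled CPM. With cells thinned to 1000 UMIs before gating, the VAChT value turned to -0.21.

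CCKLR-17D1 and CCKLR-17D3 are the receptors of drosulfakinin, the fly relative of cholecystokinin. CCKLR-17D1 (X, 18707494 to 18726572) was at 25.1, 27.8 and 32.3 CPM in the prt gate of the controls and 30.5, 24.8 and 22.9 CPM in that of the knock-in, against 9.30 to 13.5 CPM in other cells, with no overlap (log2 fold change 1.40 with SE 0.10, adjusted p = 2.71e-06 in edgeR). CCKLR-17D3 was at 26.6 ± 3.74 against 16.7 ± 2.07 CPM (SD, n = 6; log2 fold change 0.80 with SE 0.10, adjusted p = 8.79e-05 in edgeR). Both receptors of this peptide were thus higher in prt-gated cells. CCKLR-17D1 overlaps CG42302 and Cyp308a1, at 0.916 and 0.0231 CPM over all cells.

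Lgr1 (3R, 17725777 to 17733207), the receptor of the glycoprotein hormone formed by Gpa2 and Gpb5, was at 7.99, 18.9 and 7.45 CPM in the prt gate of the controls and 34.1, 19.6 and 27.3 CPM in that of the knock-in. In other cells it was at 10.7, 5.54 and 6.45 CPM and 14, 13.1 and 11.7 CPM, so control replicate 1 went the other way. The log2 fold change was 1.18 (SE 0.21, adjusted p = 0.0012 in edgeR, higher in 5 of 6 libraries). Thinning to 1000 UMIs before gating left 29 to 170 prt-gated cells per library. The calls of CCKLR-17D1 (adjusted p = 0.0506) and Lgr1 (adjusted p = 0.0518 in edgeR) in this gate were then lost at like fold changes.

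Among the members that were lower, Pdfr was at 5.71, 20.7 and 7.45 CPM in the prt gate of the controls and 29.1, 29.5 and 12.9 CPM in that of the knock-in, against 66.6 to 171 CPM in other cells (log2 fold change -2.46 with SE 0.27, adjusted p = 4.26e-05 in edgeR). AstC-R1 was at 2.28, 4.09 and 1.24 CPM in control libraries and 6.85, 7.23 and 0.497 CPM in the knock-in, against 22.3 to 28.6 CPM (log2 fold change -2.32 with SE 0.31, adjusted p = 0.000174 in edgeR). Every prt-gated value of both genes lay below every other value. The fall took in sNPF-R, at 12.7 against 59.3 CPM (log2 fold change -2.01), while sNPF itself, the ligand, was among the peptides that were higher in this gate (log2 fold change 2.39). SPR fell least but for Dh44-R2, to 110.7 from 188 CPM (log2 fold change -0.63, adjusted p = 9.98e-05 in edgeR).

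In the Vmat gate 9 of 33 tested members were higher and 4 were lower, against 11.4% and 9.26% of all features. Dh44-R1, CrzR, Lkr, Lgr1, TkR99D, FMRFaR, Dh44-R2, Dh31-R and TrissinR were higher, with log2 fold changes from 0.73 to 2.29. Lgr3, CCKLR-17D1, CNMaR and SPR were lower, with log2 fold changes from -0.98 to -0.41.

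Dh44-R1 (2R, 14378097 to 14385359) was at 75, 100.4 and 143 CPM in the Vmat gate of the controls and 155, 125 and 186 CPM in that of the knock-in, against 19 to 32.5 CPM in other cells, with no overlap. Its log2 fold change was 2.29 (SE 0.11, adjusted p = 6.31e-09 in edgeR, higher in 6 of 6 libraries). CrzR (3L, 12339116 to 12351544), the receptor of corazonin, was at 80, 27.3 and 76.9 CPM in control libraries and 25.2, 26 and 15.9 CPM in the knock-in, against 6.54 to 9.53 CPM (log2 fold change 2.11 with SE 0.27, adjusted p = 9.08e-05 in edgeR). Control replicates 1 and 3 were well above the other 4 libraries in the gate. Lkr (3L, 5512421 to 5529341), the leucokinin receptor, was at 25, 16.2 and 25.6 CPM in control libraries and 18.5, 12 and 21.2 CPM in the knock-in, against 4.04 to 6.18 CPM (log2 fold change 1.91 with SE 0.22, adjusted p = 3.11e-05 in edgeR), and thinned to 1000 UMIs this came to 0.33, with adjusted p = 0.874.

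TkR99D was at 56.3 ± 15.5 against 26.1 ± 4.58 CPM, FMRFaR at 75.7 ± 20.6 against 37 ± 8.17 CPM and Lgr1 at 33.1 ± 17.1 against 10.4 ± 3.57 CPM (SD, n = 6 each), with log2 fold changes of 1.05, 1.01 and 1.54. Of the members that were lower, Lgr3 was at 0, 5.55 and 3.66 CPM in control libraries and 3.08, 4.67 and 5.31 CPM in the knock-in, against 5.74 to 10.4 CPM (log2 fold change -0.98, adjusted p = 0.028 in edgeR) and CCKLR-17D1 at 5 to 11 CPM against 10.5 to 14.5 CPM (log2 fold change -0.75, adjusted p = 0.0248 in edgeR). The other cells took in most of the prt gate, where both genes were higher. The 2 calls in the Vmat gate were fragile. That of Lgr3 was lost without knock-in replicate 1, 2 or 3 (adjusted p of 0.177, 0.0735 and 0.0545), and that of CCKLR-17D1 when control replicate 2, or knock-in replicate 1 or 2, was left out (0.15, 0.151 and 0.0505 in edgeR).

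The Vmat gate held several kinds of cell, and splits by a further marker, with at least 2 UMIs of it and fewer of both others, were made after the values above were seen and carry no test. In the 943 cells with ple, the enzyme that starts dopamine synthesis, Dh44-R1 came to 196.6 pooled CPM, TrissinR to 163.5 and TkR99D to 79.7, while CrzR came to 5.86 and Lkr to 2.07. In the 80 cells with Tdc2, the enzyme of tyramine synthesis, CrzR came to 62.2 pooled CPM and Dh44-R1 to 9.21. In the 54 cells with Trh, the enzyme of serotonin synthesis, AstC-R2 came to 144.5 and FMRFaR to 110.9. Dh44-R1 was thus highest in the split with ple, where CrzR and Lkr were low.

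In the repo gate, which held 16 to 99 cells per library, 15 of 33 tested members were lower and 4 were higher, against 16.8% and 16.2% of all features. The median log2 fold change of the members was -1.33 and that of all features -0.22. Proc-R, CrzR, Lkr and Dh44-R2 were the members that were higher. Of the 15 lower members, 12 were also lower in the prt gate, where 24 of 34 tested members were lower. The share of all features lower in both gates was not counted.

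Proc-R (FBgn0029723, X, 4707916 to 4729487), the receptor of proctolin, was at 159, 82.5 and 212 CPM in the repo gate of the controls and 69.7, 103 and 141 CPM in that of the knock-in, from 147 UMIs. Other cells held 1.01 to 7.46 CPM, below every gated value. The log2 fold change was 5.13 (SE 0.40, adjusted p = 1.06e-07 in edgeR, higher in 6 of 6 libraries), the largest of any member in any gate. The repo gate held 0.531% of all UMIs and 11.4% of the UMIs of Proc-R. In free RNA the gene was at 3.59 to 10.6 CPM. Proc-R was lower in the VAChT, VGlut, Gad1 and prt gates, with 0.459, 1.75 and 1.15 CPM in the VAChT gate of the controls and 2.61, 5.98 and 0.669 CPM in that of the knock-in.

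CrzR in the repo gate was at 159, 52.3 and 116 CPM in control libraries and 26.1, 9.33 and 21.7 CPM in the knock-in, from 66 UMIs, against 6.76 to 9.91 CPM in other cells (log2 fold change 2.58 with SE 0.43, adjusted p = 0.000329 in edgeR). In 5 of 6 libraries the gated value was the higher one, and knock-in replicate 2 was lower. Lkr was at 35.4, 36.2 and 38.6 CPM in control libraries and 31.4, 9.33 and 0 CPM in the knock-in, from 44 UMIs, against 4.18 to 6.45 CPM (log2 fold change 2.44 with SE 0.45, adjusted p = 0.000771 in edgeR). Knock-in replicate 3, with 16 repo-gated cells, had no UMI of Lkr. Thinning to 1000 UMIs before gating left 4 to 22 repo-gated cells per library, and the call of CrzR was then lost (log2 fold change 1.28, adjusted p = 0.415 in edgeR).

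Dh44-R2, the other receptor of Dh44, was at 17.7, 78.4 and 125 CPM in the repo gate of the controls and 106, 74.7 and 54.4 CPM in that of the knock-in, against 17.6 to 28.7 CPM in other cells, and control replicate 1 lay inside that range (log2 fold change 1.96 with SE 0.31, adjusted p = 0.000181 in edgeR). Its opposite-strand neighbour fdl was at 48.9 CPM in repo-gated and 46.8 CPM in other cells. Among the lower members, Lgr3 had 2 UMIs and CCKLR-17D3 had 5 UMIs in the whole gate, with log2 fold changes of -2.64 for the first (SE 0.81, adjusted p = 0.0215) and -2.42 for the second (SE 0.55, adjusted p = 0.00359, both in edgeR). The other cells took in the whole prt gate, where both genes were higher. In the repo gate the call of Lgr3 was lost without knock-in replicate 1 or 2, at adjusted p of 0.119 and 0.0503 in edgeR. That of CCKLR-17D3 was lost with the repo gate at 1 UMI, at 0.349 in edgeR.

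Cells with at least 1 UMI of repo, a wider set than the repo gate, were also split by markers of glial subtypes, with at least 2 UMIs of 1 marker and fewer of both others. This split was made after the values were seen and carries no test. In the 161 cells with zyd, a marker of cortex glia, Proc-R came to 161.6 pooled CPM, with 111.7 to 455 in single libraries, and in the 191 cells with alrm, a marker of astrocyte-like glia, to 37.7. In the 50 cells with Mdr65, a marker of the surface glia of the blood-brain barrier, Dh44-R2 came to 138.1 pooled CPM, CrzR to 133.6 and Lkr to 126.8, while Proc-R came to 20.4. CrzR and Lkr came to 3.59 and 1.80 pooled CPM in the cells with alrm, and to 2.61 and 1.30 in those with zyd. The Mdr65 split held 4 to 13 cells per library.

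Mdr65 was also counted in the Vmat gate, where it was at 80, 33.8 and 54.9 CPM in control libraries and 29.3, 37.4 and 53.1 CPM in the knock-in, against 1.34 CPM over all cells. In the 1763 Vmat-gated cells with no UMI of repo, CrzR was at 11.8 to 43.6 CPM by library and Lkr at 4.70 to 18.7 CPM, against 15.9 to 80 CPM and 12 to 25.6 CPM in the whole gate. Dh44-R1 came to 143.2 pooled CPM in those cells. The part of surface glia in the CrzR and Lkr values of the Vmat gate was not tested further.

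**Figure D3:**
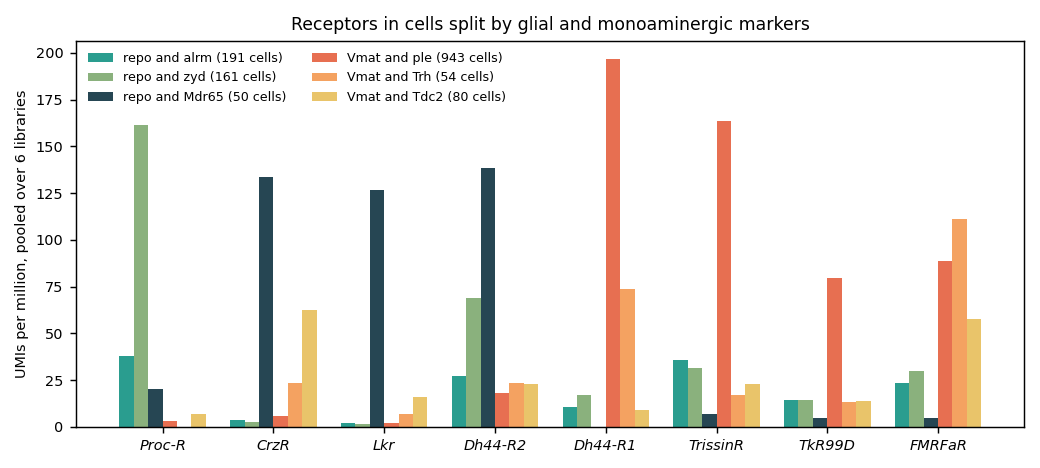
Level in CPM of 8 receptor genes, pooled over 6 libraries, in cells with at least 1 UMI of repo that also held alrm, zyd or Mdr65 and in Vmat-gated cells that also held ple, Trh or Tdc2 (bars; no error, since cells were pooled). Proc-R is highest with zyd at 161.6, CrzR, Lkr and Dh44-R2 with Mdr65 at 126.8 to 138.1, and Dh44-R1 with ple at 196.6.

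In the dimm gate 4 of 33 tested members were higher and 4 were lower, against 6.09% and 11.5% of all features, from 83 cells in 5 libraries. RYa-R, the receptor of RYamides (3R, 26996980 to 27057935), was at 12.6 and 0 CPM in control replicates 2 and 3 and 39.1, 35 and 27.5 CPM in the knock-in, from 21 UMIs, against 2.15 to 3.54 CPM in other cells (log2 fold change 3.29 with SE 0.58, adjusted p = 6.68e-05 in edgeR). ETHR, the receptor of ecdysis-triggering hormone (3R, 21247011 to 21265134), was at 2.52 and 0 CPM in these controls and 9.78, 63.1 and 36.7 CPM in the knock-in, from 16 UMIs (log2 fold change 2.65 with SE 0.67, adjusted p = 0.00444 in edgeR). Control replicate 3, with 7 gated cells, had no UMI of either gene. The call of ETHR rested on knock-in replicate 2, without which the value was 1.85 with adjusted p = 0.142 in edgeR.

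Lgr1 was at 17.7 and 0 CPM in control replicates 2 and 3 of the dimm gate and 63.6, 77.1 and 27.5 CPM in the knock-in, from 34 UMIs (log2 fold change 1.88 with SE 0.42, adjusted p = 0.00147 in edgeR). TrissinR was the other member that was higher, at 125 ± 60.1 CPM (SD, n = 5; log2 fold change 0.95, adjusted p = 0.00695 in edgeR). AstC-R1 with 4 UMIs and TkR99D with 7 UMIs were lower, with log2 fold changes of -2.23 for the first (SE 0.69, adjusted p = 0.0207) and -1.79 for the second (SE 0.57, adjusted p = 0.0261, both in edgeR). Leaving out control replicate 2 or knock-in replicate 2 ended the AstC-R1 call (adjusted p of 0.185 and 0.0537), and leaving out any knock-in replicate ended that of TkR99D (0.145, 0.067 and 0.0825 in edgeR). SPR and Pdfr were lower too, at 65.2 and 60.1 CPM against 183 and 109.7 CPM.

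RYa-R overlaps 10 annotated genes, 2 of them on its own strand, with CG31077 the highest of them at 1.27 CPM over all cells. In the dimm gate CG31077, which lies on the opposite strand, had 8 UMIs and a mean of 13.3 CPM, with 64.1 CPM in knock-in replicate 3 and 2.52 CPM or less in the other 4 libraries. RYa-R was higher in gated than in other cells in control replicate 2 and in all 3 knock-in libraries. The part of overlapping genes in its counts was not tested.

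**Figure D4:**
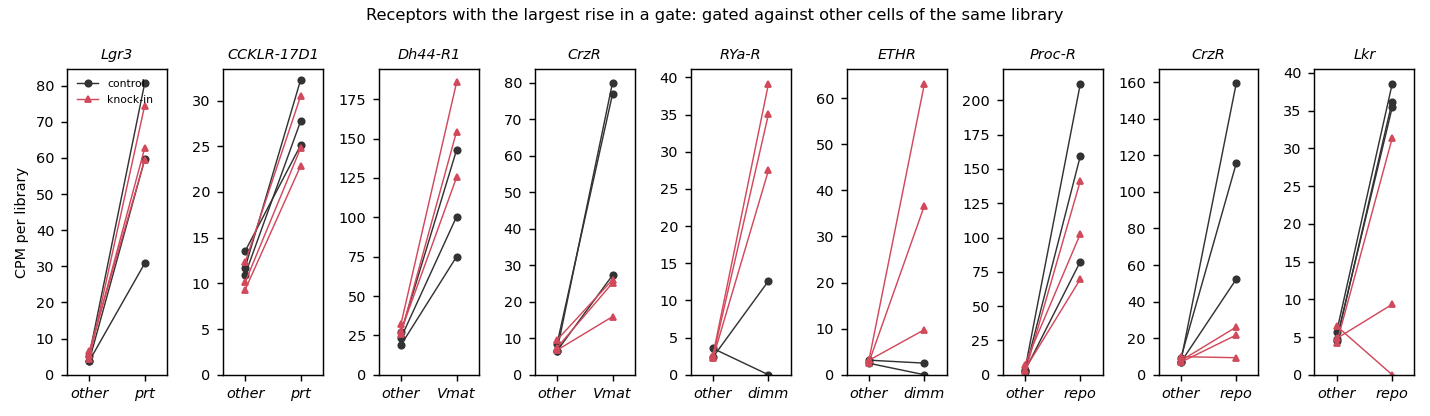
Level in CPM of the receptors that were highest in the prt, Vmat, dimm and repo gates, in other cells (left of each panel) and gated cells (right), 1 line per library (circles, control; triangles, knock-in). Lgr3, CCKLR-17D1, Dh44-R1 and Proc-R rose in every library, and CrzR and Lkr in the repo gate did not rise in every knock-in library.

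The 3 gates of fast transmitters differed from other cells by smaller factors. In the VAChT gate 6 of 36 tested members were higher and 11 were lower, against 16% and 16.2% of all features. Besides Lgr3, CNMaR was higher at 58.3, 112 and 106 CPM in control libraries and 89, 80.6 and 59.5 CPM in the knock-in, against 52.5, 60.1 and 83.2 CPM and 54.9, 63.2 and 35.9 CPM in other cells of the same libraries (log2 fold change 0.56 with SE 0.09, adjusted p = 0.00206 in edgeR). sNPF-R was higher in 6 of 6 libraries, at 66.2 ± 7.25 against 49.8 ± 5.57 CPM (SD, n = 6; log2 fold change 0.42 with SE 0.05, adjusted p = 0.000396 in edgeR). Proc-R and ETHR were lowest relative to other cells, with log2 fold changes of -1.29 for the first (SE 0.24, adjusted p = 0.00421) and -0.58 for the second (SE 0.18, adjusted p = 0.0372, both in edgeR). ETHR was at 1.61, 3.14 and 1.72 CPM in control libraries and 2.61, 2.50 and 1.62 CPM in the knock-in, against 2.92 to 4.27 CPM in other cells, and its call was lost when control replicate 1 or 3, or any knock-in replicate, was left out, at adjusted p from 0.0598 to 0.0974.

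In the VGlut gate 12 of 35 tested members were higher and 6 were lower, against 11.9% and 12.5% of all features. SIFaR was at 33.4, 44.7 and 57.5 CPM in control libraries and 34.9, 41.1 and 42.2 CPM in the knock-in, against 18.1 to 26.4 CPM in other cells, with no overlap (log2 fold change 0.84 with SE 0.08, adjusted p = 5.29e-05 in edgeR). PK2-R1, a receptor of hugin pyrokinin, was at 4.24, 4.27 and 5.16 CPM in control libraries and 6.56, 5.87 and 7.48 CPM in the knock-in, against 1.69 to 3.88 CPM (log2 fold change 0.76 with SE 0.12, adjusted p = 0.00161 in edgeR), and thinned to 1000 UMIs the value was 0.12 with adjusted p = 0.822. NPFR, the receptor of neuropeptide F, was at 22.3 ± 4.79 against 14.4 ± 3.05 CPM (SD, n = 6; log2 fold change 0.56 with SE 0.08, adjusted p = 0.000774 in edgeR) and was higher in 6 of 6 libraries. The receptors of myosuppressin (MsR1), pyrokinin (PK2-R2), CCHamide 2 and allatostatin C were also among the higher ones. Lgr3 was at 2.65 to 4.76 CPM, under its 6.18 to 12.3 CPM in other cells. Those took in most of the prt gate, which held 42% of the UMIs of Lgr3. CNMaR was at 42.4, 47 and 54.7 CPM in control libraries and 42.6, 53.5 and 20.5 CPM in the knock-in, against 53.5 to 99.1 CPM. Both were lower, with log2 fold changes of -1.28 for the first (SE 0.11, adjusted p = 3.74e-05) and -0.82 for the second (SE 0.10, adjusted p = 0.000256, both in edgeR).

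In the Gad1 gate 11 of 35 tested members were higher and 10 were lower, against 15% and 17.9% of all features. Dh44-R1 was at 32.3, 35.3 and 54.6 CPM in control libraries and 41.9, 50.5 and 50.5 CPM in the knock-in, against 17.8 to 32.2 CPM in other cells, with no overlap (log2 fold change 0.80 with SE 0.07, adjusted p = 1.55e-05 in edgeR). Dh31-R, the receptor of the calcitonin-like hormone Dh31, was at 24.8, 25.6 and 38 CPM in control libraries and 22, 27.4 and 23 CPM in the knock-in, against 14 to 18.4 CPM, again with no overlap (log2 fold change 0.63 with SE 0.11, adjusted p = 0.00126 in edgeR). Lkr was at 7.42 ± 3.19 against 4.79 ± 0.457 CPM (SD, n = 6; log2 fold change 0.52 with SE 0.16, adjusted p = 0.0314 in edgeR), a call that did not hold when control replicate 2 or 3, or knock-in replicate 1 or 3, was left out, at adjusted p from 0.0518 to 0.0791. Dh44-R1 and Dh31-R both bind peptides named diuretic hormones. AkhR, the receptor of adipokinetic hormone, and Lgr3 were lower. AkhR was at 3.23, 3.71 and 0.487 CPM in control libraries and 0.0744, 0.928 and 0 CPM in the knock-in, against 30.6, 7.67 and 1.05 CPM and 0.255, 1.64 and 0 CPM in other cells. Cells with at least 20 UMIs of Yp1, a fat body gene, held 88.9% of AkhR UMIs in control replicate 1. In control replicates 2 and 3 they held 41.2% and 21.4%, and in knock-in replicates 1 and 2 they held 10% and 9%. Over all cells with fewer, AkhR was at 3.06, 4.14 and 0.763 CPM in control libraries and 0.205, 1.39 and 0 CPM in the knock-in. The part of the Yp1 cells in the fall was not tested. Lgr3 was at 2.93 to 4.09 CPM against 5.98 to 11.4 CPM in other cells, which took in most of the prt gate with its 42% of Lgr3 UMIs. Against other cells the log2 fold changes were -1.47 for AkhR (SE 0.33, adjusted p = 0.00789) and -1.39 for Lgr3 (SE 0.12, adjusted p = 1.42e-05, both in edgeR).

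Receptors that share a ligand did not always keep together, although differences between members of a pair were not tested. In the Vmat gate Dh44-R1 and Dh44-R2 were both higher, and in the repo gate Dh44-R1 was lower (log2 fold change -1.52) where Dh44-R2 was higher (1.96). In the VGlut gate Dh44-R2 stood at -0.59 and Dh44-R1 at -0.22. The allatostatin C receptors were both lower in prt-gated cells, at -2.32 for AstC-R1 and -1.64 for AstC-R2, and both higher in VGlut-gated cells, at 0.32 and 0.18. The myosuppressin receptors MsR1 and MsR2 were lower in the VAChT gate, at -0.31 and -0.25, and higher in the Gad1 gate, at 0.30 and 0.38. Of the tachykinin receptors, TkR99D was higher in the Vmat gate at 1.05, and TkR86C stood at 0.16 there without passing.

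Between the genotypes no member passed the threshold. In sums over all cells, fewer cells of a type and less RNA per cell cannot be told apart. A p that missed the threshold does not show that levels were equal. With the group as the only term in edgeR, 0 of 36 tested members were past an adjusted p of 0.05 over all cells, where 0.223% of 11200 features were (0.0804% higher and 0.143% lower), and 3 members had an unadjusted p under 0.05, as did 1343 features. The counts of members past the threshold were also 0 of 36 in the VAChT gate (0.378% of features, 0.157% higher and 0.22% lower), 0 of 35 in VGlut (0.297%, 0.126% and 0.171%), 0 of 33 in Gad1 (0.312%, 0.144% and 0.168%), 0 of 21 in prt (0.241%, 0.106% and 0.136%) and 0 of 24 in Vmat (0.0975%, none higher). Unadjusted p under 0.05 came to 3, 2, 3, 1 and 2 members and to 894, 645, 577, 528 and 502 features in these 5 gates. DESeq2 called 1 member over all cells and 1 in the VAChT gate, both times Lgr1. The median log2 fold change of the members was 0.11 over all cells and that of all features 0.00, and 26 of 36 members were positive. The dimm gate and the repo gate had under 30 cells in some libraries and were not fitted.

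Lgr1 had the smallest p over all cells. It was at 10.5, 6.28 and 6.50 CPM in control libraries and 15.3, 13.3 and 13.0 CPM in the knock-in, with means of 7.76 ± 2.38 and 13.9 ± 1.27 CPM (SD, n = 3 each). The groups did not overlap, and control replicate 1 was the control nearest to the knock-in libraries. The log2 fold change was 0.85 (SE 0.23, unadjusted p = 0.00838, adjusted p = 0.271 in edgeR; adjusted p over the alternatives 0.0242 to 0.52, the lowest being that of DESeq2).

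Within the gates Lgr1 stood at 11.7, 6.28 and 5.36 CPM in the VAChT-gated cells of the controls and 18, 16.8 and 13.8 CPM in those of the knock-in, again with no overlap (log2 fold change 1.10 with SE 0.29, adjusted p = 0.309 in edgeR). The log2 fold change was 1.08 in the Gad1 gate, 1.00 in prt, 1.07 in Vmat and 0.20 in VGlut, with adjusted p of 0.66, 0.557, 0.555 and 0.882 in edgeR. Whether the value in the VGlut gate differs from the others was not tested. In the VGlut gate the controls at 6.89, 7.73 and 14.3 CPM enclosed all knock-in values of 9.87, 10.4 and 13 CPM. DESeq2 gave 0.87 over all cells and 1.11 in the VAChT gate, with adjusted p = 0.0242 and 0.0251. In free RNA Lgr1 was at 1.39, 6.02 and 3.95 CPM in control libraries and 13.3, 10.8 and 8.78 CPM in the knock-in. The knock-in libraries were thus higher there too, while the controls ran in the reverse of their order over all cells. The part of free RNA in the difference was not tested.

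AkhR (2L, 6711286 to 6716186) was at 26.6, 6.98 and 0.968 CPM in control libraries and 0.227, 1.52 and 0 CPM in the knock-in. Control replicates 1 and 2 were high and control replicate 3 lay among the knock-in libraries. The log2 fold change was -4.20 (SE 1.45, unadjusted p = 0.0227, adjusted p = 0.357 in edgeR), and -2.74 without control replicate 1. Transcripts of Yp1, a yolk protein gene of the fat body, ran in the same order over the 6 libraries, at 2190, 622 and 141 CPM in control libraries and 96.7, 159 and 2.85 CPM in the knock-in. The fat body marker apolpp did not keep that order. It was at 89.6, 37.3 and 45.8 CPM in control libraries and 41.5, 46.1 and 17.7 CPM in the knock-in. The 46 cells of control replicate 1 with at least 20 UMIs of Yp1 held 88.9% of its AkhR UMIs, and the 151 such cells of control replicate 2 held 41.2%. The share was 21.4% in control replicate 3, 10% in knock-in replicate 1 and 9% in knock-in replicate 2. Of the 4 fat body markers the summed level over all cells was 187.5 to 2281 CPM in control libraries and 20.5 to 207 CPM in the knock-in, with Fbp1 and Lsp2 at means of 0.165 and 0.535 CPM. The part of fat body RNA in the AkhR values was not tested. Over cells with fewer than 20 UMIs of Yp1, AkhR was at 3.06, 4.14 and 0.763 CPM in control libraries and 0.205, 1.39 and 0 CPM in the knock-in.

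PK2-R1 was at 2.07, 3.16 and 3.11 CPM in control libraries and 4.28, 4.34 and 4.66 CPM in the knock-in, with no overlap (log2 fold change 0.66, SE 0.26, unadjusted p = 0.0398, adjusted p = 0.389 in edgeR). Over all cells 5 of 36 tested members had no overlap and were higher in the knock-in (Lgr1, MsR1, PK2-R1, TkR99D and sNPF-R), against 8.98% of features, and 1 was lower (CCKLR-17D3), against 9.86%. The counts of higher and lower members without overlap were 6 and 2 in VAChT (7.81% and 8.03% of features), 3 and 2 in VGlut (7.43% and 6.44%), 4 and 1 in Gad1 (6.92% and 6.1%), 1 and 0 in prt (10.3% and 5.72%) and 0 and 1 in Vmat (7.55% and 8.45%). The shares of members lay above those of all features in some of these counts and below them in others. CCKLR-17D3 was the lower member over all cells and 1 of the 2 in the VAChT and VGlut gates, at 18.9 ± 1.17 and 15.7 ± 0.917 CPM over all cells (SD, n = 3 each).

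CrzR was the member without overlap in the Vmat gate, at the levels given above, with a log2 fold change of -1.16 (SE 0.44, unadjusted p = 0.0227, adjusted p = 0.549 in edgeR). Without control replicate 2 it was -1.78 with adjusted p = 0.0357. In the repo gate the controls (52.3 to 159 CPM) also lay above the knock-in libraries (9.33 to 26.1 CPM). With the repo gate widened to 1 UMI, which gave 50 to 498 cells per library, the log2 fold change of CrzR was -2.08 (SE 0.62, unadjusted p = 0.00719, adjusted p = 0.859 in edgeR) and that of Lkr -1.05 (SE 0.40, adjusted p = 0.913 in edgeR). In that fit 0 of 18 tested members passed, against 0.0343% of features. Mdr65 in the repo gate was at 230.3, 78.4 and 48.2 CPM in control libraries and 57.5, 74.7 and 207 CPM in the knock-in. The part of surface glia in the CrzR values was not tested.

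**Figure D5:**
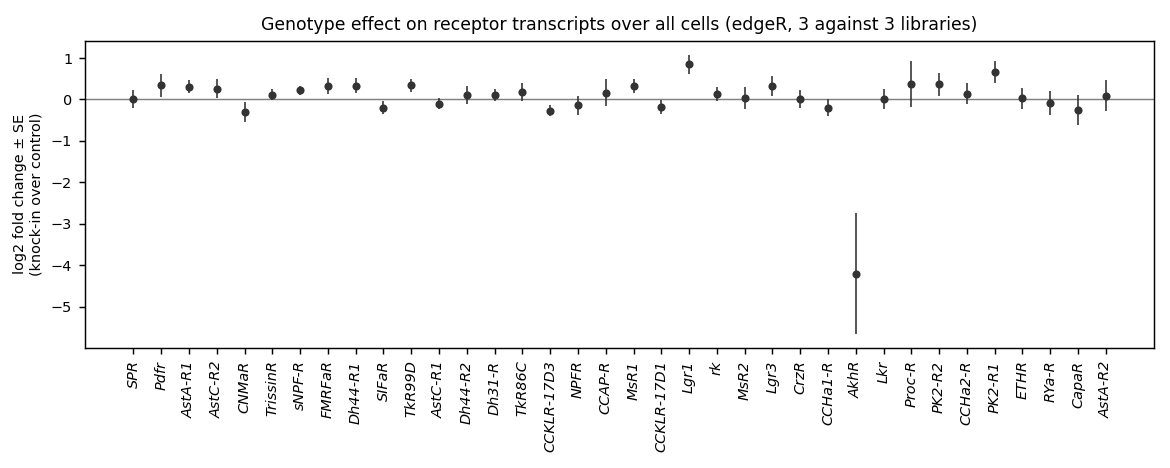
Log2 fold change of 36 receptor genes, knock-in over control, over all cells (points, edgeR; bars, SE; 3 against 3 libraries), ordered by mean CPM. Lgr1 at 0.85 and AkhR at -4.20 lie farthest from 0, and no gene passed an adjusted p of 0.05.

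The peptide ligands were read from a list of 32 genes, of which 31 were found and Gpa2 was not matched. None of the tested ligands passed between the genotypes, over all cells (0 of 26) or in any of the 5 gates. In the dimm gate 12 of 22 tested ligands were higher and 3 were lower, led by AstA at a log2 fold change of 7.32, against 6.09% and 11.5% of all features. In the repo gate none of 19 was higher and 15 were lower, against 16.2% and 16.8%. In the prt gate 4 of 22 were higher (sNPF, Ms, Akh and Gpb5) and 6 lower, near the 23.6% and 28.9% of all features. Gpb5, a subunit of the ligand of Lgr1, was higher in the prt gate (0.86) and the dimm gate (2.36) and did not pass in the Vmat gate (-0.03), while Lgr1 was higher in all 3. The prt and dimm gates shared cells, with 22.3% of dimm-gated cells on average also in the prt gate. The part of these cells in the prt values was not tested.

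Of 21 genes that carry receptor signals inside the cell, such as G protein subunits, adenylyl cyclase and protein kinase A, 12 of 19 tested were higher and 4 were lower in the prt gate, against 23.6% and 28.9% of all features. The adenylyl cyclase rut, the kinase subunits Pka-C1, Pka-R1 and Pka-R2 and the phosphodiesterase dnc were among them, with log2 fold changes of 2.60, 2.53, 1.92, 2.70 and 1.47, where most receptors were lower. Pka-C1 and rut are also on the list of Kenyon markers. In the repo gate 8 of 19 were lower and 3 were higher, with Galphai at 4.21, against 16.8% lower and 16.2% higher among all features. None of the 21 passed between the genotypes over all cells.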

How the data were processed

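The deposited matrices hold raw UMI counts per feature and barcode for 6 libraries, with Cell Ranger 4 named per the file headers, while the submitters' processing notes name version 6.0. The genome build, annotation and strand setting are not given in the sources used here. Coordinates come from an Ensembl annotation of BDGP6, matched by identifier (all 37 members, 22016 of 22064 features). The members and all gene lists were chosen with earlier results of these data known.

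Barcodes with at least 1000 UMIs were summed per library and gate. Doublets and cells with much mitochondrial RNA were kept: 2.04% to 9.95% of cells held at least 2 UMIs of 2 or more of VAChT, VGlut and Gad1. The counts were tested with edgeR 4.0.16 in R 4.3.3 (quasi-likelihood, TMM, filterByExpr, two-sided, Benjamini-Hochberg adjustment over all features of a fit), with a minimum of 30 gated cells in every library for the genotype. Gates were compared within libraries; 1 dimm gate was empty and left out. CPM values use each library's TMM factor over all cells (0.938 to 1.09). Genes named with values were the 12 most abundant, the 3 smallest p between genotypes, and per gate the 3 largest rises and 2 largest falls that passed, and others were named after their values were seen. DESeq2 1.42.0 was an alternative. The scripts were tested on simulated data.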

Additional observations from a re-analysis of the deposited data

How the results depend on the processing

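Over all cells 25 features passed between the genotypes, and 381 did with DESeq2 1.42.0, 56 with only all-zero features left out, 13 with a block for sequencing depth, and 1 to 61 when a library was left out. Receptors past the threshold were 0, and 1 with DESeq2. Summed over 5 gates, 110 features passed, against 392 with DESeq2, 1156 with only all-zero features left out, 187 with the depth block, 65 with gates at 1 UMI, 53 with cells thinned to 1000 UMIs (4 gates, since prt fell under 30 cells) and 24 to 392 with a library left out. Receptors were 0 there, and 1 with DESeq2 (Lgr1), 1 with only all-zero features left out (AkhR in Gad1, -2.76, adjusted p = 0.0199 in edgeR) and 0 to 1 with a library left out (CrzR).

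The replicate block gave 8 features over all cells and 328 over the gates, with 0 and 1 receptors (AkhR in VAChT, -3.03, adjusted p = 0.0486 in edgeR); same-numbered libraries correlated at 0.119, 0.0484 and 0.257 over 11200 features and not every library correlated best with its own number, so the numbers were not taken to pair the samples. Receptors higher in a gate summed to 50 and lower to 74 over 7 gates, and thinning gave 32 and 48, with 10054 features in place of 18666. Thinning reversed Lgr3 in VAChT (-0.21) and Lgr1 in dimm (-9.45, from 1 to 2 cells per library), gates at 1 UMI reversed AkhR in Gad1 (0.50), and leaving out mixed-transmitter cells reversed Lgr1 between genotypes in VGlut (-0.0857). Of 554 alternatives for 35 named gate results, 500 kept direction and call, 51 lost the call and 3 reversed; of 134 for 8 genotype results, 131 did, 2 gained the call and 1 reversed. The cause of these changes was not tested. The dimm and repo gates held few cells (83 and 293).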
